A study of Mus musculus with 77 samples.

Results

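Amino acid transporters are membrane proteins that carry amino acids into and out of cells, and the genes studied here are those of 7 solute carrier (Slc) families. They were chosen by name, as every gene whose symbol starts with Slc1a, Slc3a, Slc6a, Slc7a, Slc36a, Slc38a or Slc43a and a number. Levels and hormone differences are no part of this naming rule, but it was set with earlier results of these data known. The rule found 66 gene symbols among the 24940 or 25124 symbols of each full table of RNA sequencing values, with 22 in the Slc6 family, 16 in Slc7, 11 in Slc38, 7 in Slc1, 5 in Slc36, 3 in Slc43 and 2 in Slc3. All 66 varied between libraries in at least 1 table, and 37 varied in each of the 9 full tables. Of the symbols, 3 (Slc36a1os, Slc6a19os and Slc7a6os) name genes on the opposite strand of a transporter gene and are no transporters themselves.

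The study asked how the mineralocorticoid receptor (MR, gene Nr3c2), the receptor of aldosterone, works with and without the glucocorticoid receptor (GR, gene Nr3c1). Mouse colon organoids, which are gel cultures of gut epithelial cells, were labelled GRKO (GR knockout) or wild type (WT), and took aldosterone (10 nM) or vehicle for 2 h, with 5 libraries per group for GRKO and 6 for WT. The value columns of the GRKO organoids carry GRKD in place of GRKO, and the label is used here. Mouse adenocarcinoma cells, called C127l in the labels of the chromatin samples, were labelled GRKO or parental and carried added MR, an MR form named MR580C or, in 1 parental line, no added MR, with 3 libraries per cell group apart from those named next. Parental MR cells had 2 libraries with aldosterone and 3 with vehicle, and with corticosterone 2 of 3 labelled samples had a column. Of the 3 aldosterone libraries of MR580C cells labelled GRKO, 2 were identical and were counted as 1. MR and MR580C cells took corticosterone (100 nM), aldosterone (10 nM) or vehicle for 2 h, and cells without added MR took aldosterone or vehicle. Per the labels, all organoids and cells were kept in charcoal-stripped serum, which is depleted of steroids, before the hormone. The labels name the MR line MR-2B12 under the GRKO label and MR-1G12 under the parental one, so comparisons of responses between them set different MR lines side by side. The labels state neither how GR was removed, nor whether a line is 1 clone, nor whether replicates are separate cultures or animals. The p-values therefore rest on the spread among these libraries, and that spread may be technical.

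Most transporters of the Slc6, Slc7, Slc1 and Slc38 families use sodium, exchange 1 amino acid for another, or both. Slc7 light chains such as Slc7a5 and Slc7a11 reach the cell surface bound to a heavy chain, Slc3a2 or Slc3a1. When amino acids run short, the kinase Gcn2 and the factor Atf4 raise many transporter genes together with genes of amino acid synthesis, while the kinase mTORC1 responds to amino acids that have entered. In the colon, aldosterone is known for sodium uptake through the epithelial sodium channel and the kinase Sgk1.

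The 62 libraries with a column held 22.68 to 61.12 M reads (M, mega), with a mean of 39.9 M. In organoids the aldosterone gene Sgk1 was higher with hormone by 4.05 ± 0.07 in GRKO and by 5.68 ± 0.08 in WT (log2 difference ± standard error, SE). Nr3c1 averaged 9.12 in GRKO and 11.24 in WT vehicle organoids on the deposited log2 scales, which were normalised separately for each table. In MR cells Nr3c1 was not lower under the GRKO label (13.00 ± 0.02 in vehicle MR cells labelled GRKO and 12.87 ± 0.03 in vehicle parental MR cells, SD, n = 3 each), and a transcript count does not show whether the protein is made, so these lines are named by their label throughout. Organoids held all 6 colonocyte and all 7 goblet cell markers well above the lowest value of their table, and the group means of all 5 fibroblast markers lay within 1 log2 unit of it. In single libraries, WT aldosterone replicates 4 and 6 stood apart with Col1a1 at 8.10 and 9.06 and Col1a2 at 7.59 and 8.20, where no other WT library passed 6.72 for Col1a1. In vehicle parental MR580C cells, 7 of 8 epithelial markers (Epcam, Cdh1, Krt8 and Krt18 among them) lay that near to the lowest value. Of the 5 fibroblast markers Col1a1, Dcn and Lum also lay that near, and Col1a2 and Pdgfra did not. Organoid replicates can differ in their mix of cells, and in such bulk samples fewer cells of a type and less RNA per cell cannot be told apart.

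Of the 66 symbols 60 varied in both organoid and cell tables, Slc36a3, Slc38a11 and Slc7a10 in organoids alone, and Slc6a5, Slc7a12 and Slc7a13 in cells alone. Each organoid table had 61 tested, of which 30 in GRKO and 32 in WT averaged more than 1 log2 unit above the lowest value, and the rest were near it. In parental MR580C cells 52 were tested and 20 lay that high. In the other cell tables, where 47 to 54 varied, 25 to 28 passed a filter that asked for a log2 value of 3.32 (10 on the linear scale) in as many libraries as the smaller group holds.

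The promoters shown come from the RefSeq table (GRCm38.p6, a patch release of mm10) and belong to the Slc7a11 light chain and Slc3a2 heavy chain, which were lower together in 1 line, and to Slc1a4 and Slc6a20a, which were called in organoids. Each is given from 250 bases before the start of the transcript, on the strand of the gene, in lower case. Slc7a11 lies at chr3:50443614-50443863, Slc3a2 at chr19:8713898-8714147, Slc1a4 at chr11:20332710-20332963 and Slc6a20a at chr9:123678833-123679082, all on the minus strand. Capitals mark the core of the amino acid response element (TGATGNAA) in Slc7a11 and Slc1a4, and Slc3a2 and Slc6a20a held neither that core nor the steroid receptor hexamer (AGAACA). The Slc1a4 sequence runs 4 bases past the start so that its match, which spans the start, is whole.
Slc7a11: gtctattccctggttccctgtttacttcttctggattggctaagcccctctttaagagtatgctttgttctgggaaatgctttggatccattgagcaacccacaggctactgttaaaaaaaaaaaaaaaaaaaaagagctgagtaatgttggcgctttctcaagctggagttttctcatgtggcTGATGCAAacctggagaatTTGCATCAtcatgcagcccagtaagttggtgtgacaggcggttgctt
Slc3a2: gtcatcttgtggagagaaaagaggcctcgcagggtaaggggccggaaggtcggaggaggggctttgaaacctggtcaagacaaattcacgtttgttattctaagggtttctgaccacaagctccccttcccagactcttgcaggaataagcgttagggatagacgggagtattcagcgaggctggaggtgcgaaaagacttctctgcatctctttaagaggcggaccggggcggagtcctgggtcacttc
Slc1a4: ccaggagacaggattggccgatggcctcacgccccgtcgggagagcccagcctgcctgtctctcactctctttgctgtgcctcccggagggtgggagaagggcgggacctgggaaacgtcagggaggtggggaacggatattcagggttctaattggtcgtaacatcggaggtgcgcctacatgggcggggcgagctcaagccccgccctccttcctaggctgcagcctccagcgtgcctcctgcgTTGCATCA
Slc6a20a: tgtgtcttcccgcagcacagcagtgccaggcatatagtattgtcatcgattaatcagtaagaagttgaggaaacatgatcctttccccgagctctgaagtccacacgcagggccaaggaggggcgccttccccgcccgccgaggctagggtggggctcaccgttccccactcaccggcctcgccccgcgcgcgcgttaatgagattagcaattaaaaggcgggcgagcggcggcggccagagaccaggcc
Both strands were searched in windows that ran from 250 bases before to 50 bases after each start, and 48 of the 66 symbols had 1 or more of the 32851 windows. The motifs can overlap, since the full element contains the hexamer. TGATGNAA was found in 4 of those 48 genes (Slc1a4, Slc6a21, Slc7a7 and Slc7a11), which is 5 of their 69 windows, and in 3.97% of all windows. AGAACA was found in 9 of the 48 genes (Slc36a1, Slc38a4, Slc6a19, Slc7a1 and Slc7a11 among them), which is 13 of their 69 windows, and in 19.0% of all windows. The full steroid receptor element, AGAACA and TGTTCT with any 3 bases between them, was found in 3 of the 32851 windows and in none of the 48 genes. Slc7a11 held 2 matches to TGATGNAA, at bases 66 to 59 and 47 to 40 before the start. Among genes called below, Slc6a4 and Slc38a2 held none of the 3 motifs in their windows, Slc6a19 and Slc38a4 held AGAACA, and Slc6a6 had no window.

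In WT organoids 4 transporter genes rose with aldosterone and 1 fell. Slc6a6, which carries taurine, Slc6a4, the serotonin transporter, Slc6a20a, a carrier of proline and other imino acids, and Slc7a15, a carrier that prefers aromatic amino acids, were higher in aldosterone libraries, and Slc1a4, an exchanger of serine, alanine and other neutral amino acids, was lower. These were 5 of 61 transporter genes tested by limma with Benjamini-Hochberg adjustment over all genes (adjusted p under 0.05), beside 6.59% of all 20196 genes called (4.23% raised and 2.36% lowered). The share of transporter genes called was thus near that of all genes. The median difference was 0.03 over the 61 genes and -0.005 over all genes tested, with 38 of the 61 above 0.

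Slc6a6 (chr6:91684067-91759063, plus strand) gave lowest, median and highest log2 values of 13.43, 13.58 and 13.65 in the 6 aldosterone libraries, against 12.90, 13.14 and 13.20 in the 6 vehicle libraries. Every aldosterone library lay above every vehicle library. The difference was 0.46 ± 0.06 (limma adjusted p = 4.06e-05), a ratio of 1.37 on the deposited scale. Slc6a4 (chr11:76998597-77032343, plus strand) gave 7.77, 7.94 and 8.10 with aldosterone, against 7.38, 7.50 and 7.67 with vehicle. Again no libraries of the groups overlapped, and the difference was 0.44 ± 0.07 (limma adjusted p = 0.000405). In the gut, serotonin released by enteroendocrine cells is cleared by this transporter.

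Slc6a20a (chr9:123636907-123678832, minus strand) gave 7.14, 7.33 and 7.44 with aldosterone, against 6.56, 6.88 and 7.13 with vehicle. The lowest aldosterone library lay just above the highest vehicle library, and the difference was 0.44 ± 0.09 (limma adjusted p = 0.00268). Slc7a15 (chr12:8528483-8539566, minus strand) gave 6.43, 6.62 and 6.82 with aldosterone, against 6.23, 6.32 and 6.44 with vehicle. All 6 aldosterone libraries were above the vehicle mean, but the ranges overlapped slightly, and the difference was 0.29 ± 0.06 (limma adjusted p = 0.00658). Slc1a4 (chr11:20302180-20332713, minus strand), whose promoter match to TGATGNAA spans the transcript start, gave 10.54, 10.78 and 10.91 with aldosterone, against 10.94, 11.09 and 11.26 with vehicle. All aldosterone libraries lay below all vehicle libraries, and the difference was -0.32 ± 0.07 (limma adjusted p = 0.00634).

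The deposited scale is a variance-stabilizing transformation that pulls weak genes towards the lowest value of the table (5.93 here), so the differences of Slc6a20a and Slc7a15 are compressed. The authors' deposited table gave log2 fold changes of 0.46 for Slc6a6, 0.80 for Slc6a4, 1.09 for Slc6a20a, 1.60 for Slc7a15 and -0.35 for Slc1a4, and called the same 5 transporter genes at its adjusted p, beside 8.15% of all genes. Each of the 5 kept its call in all 12 fits that left out 1 library, and all 5 passed without the 2 aldosterone libraries that held collagen transcripts (0.45 for Slc6a6, 0.38 for Slc6a4, 0.40 for Slc6a20a, 0.26 for Slc7a15 and -0.29 for Slc1a4).

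The carriers of bulk amino acid supply did not pass the test in WT organoids. The glutamine exchanger Slc1a5 differed by 0.16 ± 0.08, the leucine carrier Slc7a5 by 0.13 ± 0.07 and its heavy chain Slc3a2 by 0.12 ± 0.06, while the arginine carrier Slc7a1 differed by 0.07 ± 0.08. The sodium-coupled carriers Slc38a1 and Slc38a2 differed by 0.09 ± 0.06 and -0.16 ± 0.06. For Slc7a11, the cystine and glutamate exchanger, the difference was -0.11 ± 0.07, and for the broad carrier Slc6a14 it was -0.24 ± 0.11. Slc36a1, a proton-coupled carrier also found on lysosomes, differed by 0.03 ± 0.08 and the leucine facilitator Slc43a1 by -0.01 ± 0.08. The limma adjusted p of these 10 genes ran from 0.13 to 0.95.

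**Figure D1:**
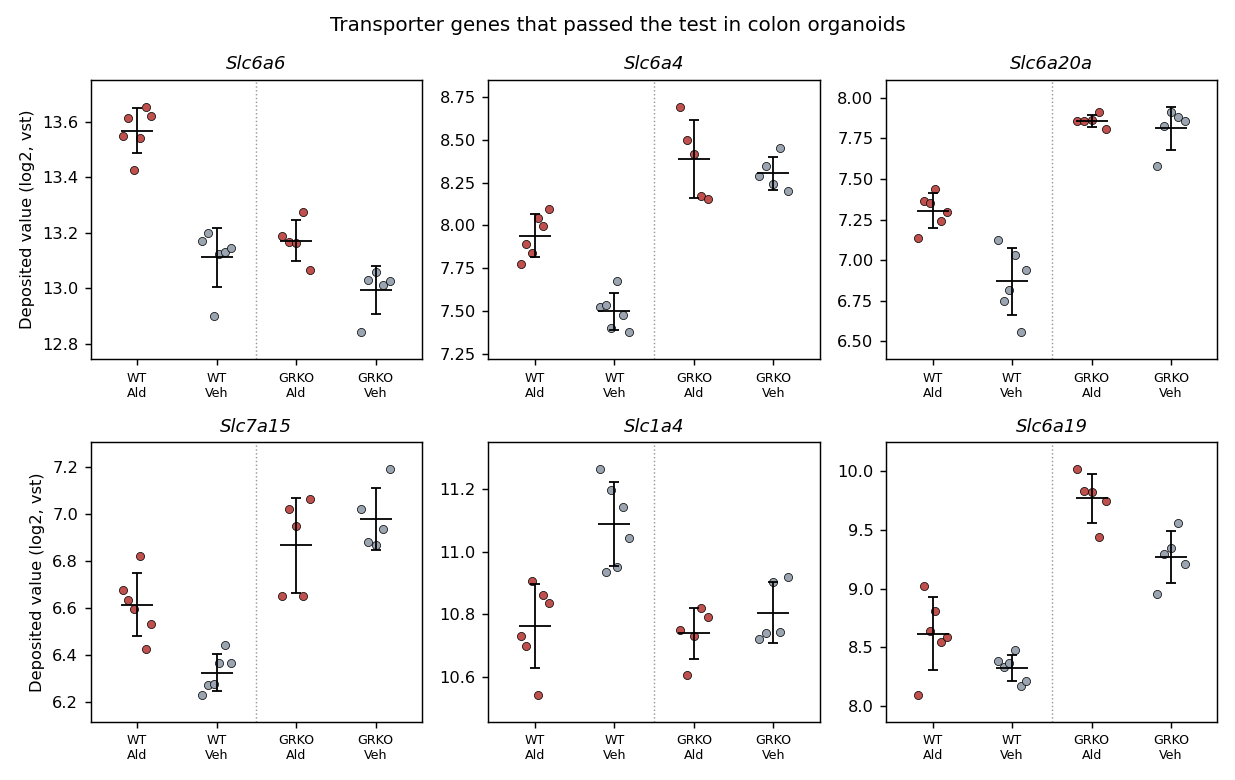
Deposited log2 values (variance-stabilized, vertical axis, a separate range per gene) of the 6 genes called in organoids, 1 point per library, with aldosterone (red) left of vehicle (grey) for WT organoids and for GRKO organoids; the bars give the mean ± SD. Slc6a6, Slc6a4, Slc6a20a and Slc1a4 show no overlap between aldosterone and vehicle in WT organoids, and levels should not be read across WT and GRKO because the tables were normalised separately.

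In GRKO organoids 1 of 61 transporter genes passed the test, against 1.31% of all 20050 genes tested (1.12% raised). It was Slc6a19, the neutral amino acid carrier of the absorptive brush border (chr13:73679745-73700780, minus strand). It gave 10.01, 9.83, 9.82, 9.44 and 9.74 in the 5 aldosterone libraries, against 8.95, 9.30, 9.34, 9.56 and 9.21 in the 5 vehicle libraries. All 5 aldosterone libraries were above the vehicle mean, but 1 of them lay below the highest vehicle library. The difference was 0.50 ± 0.11 (limma adjusted p = 0.0291), and the authors' deposited table gave a log2 fold change of 0.65. The adjusted p passed 0.05, reaching up to 0.086, when aldosterone replicate 1, 2, 3 or 6 or vehicle replicate 2 or 5 was left out. In WT organoids Slc6a19 differed by 0.29 ± 0.11 without passing (limma adjusted p = 0.17), and it passed there when aldosterone replicate 1 was left out. The interaction, GRKO minus WT, was 0.20 ± 0.17 (limma adjusted p = 0.70). Slc26a3, a chloride exchanger and the colonocyte marker that rose in the same comparison, differed by 0.61 ± 0.09 (limma adjusted p = 0.0010), 5 of 6 colonocyte markers were above 0, and their median was 0.23 against -0.006 over all genes; the part of this marker group in the Slc6a19 result was not tested.

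Slc6a6 showed the same direction in GRKO organoids without passing the test. Its values were 13.19, 13.17, 13.16, 13.28 and 13.07 with aldosterone, against 12.84, 13.03, 13.06, 13.01 and 13.02 with vehicle. No libraries overlapped, and the difference was 0.18 ± 0.05 (limma adjusted p = 0.17), whereas the authors' deposited table gave 0.18 with an adjusted p of 0.040 (2.33% of all genes were called there). Slc7a11 differed by 0.20 ± 0.07 (limma adjusted p = 0.25), and passed with an adjusted p of 0.025 when vehicle replicate 1 was left out. Slc6a4, Slc6a20a, Slc7a15 and Slc1a4 differed by 0.08 ± 0.09, 0.05 ± 0.06, -0.11 ± 0.09 and -0.07 ± 0.06, with limma adjusted p between 0.73 and 0.84.

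The difference between the responses was tested as an interaction in limma over both tables, for 59 transporter genes varying in both. Slc7a15 passed, with a response of -0.11 in GRKO and 0.29 in WT and an interaction of -0.40 ± 0.11 (limma adjusted p = 0.0491), which makes 1 of 59 against 2.59% of all genes called (1.87% lowered). Its GRKO values were 6.65, 7.02, 6.95, 6.65 and 7.06 with aldosterone, against 7.02, 6.88, 6.87, 6.94 and 7.19 with vehicle, and they overlapped. The call was lost, with an adjusted p of up to 0.12, when any 1 of 17 of the 22 libraries was left out, and was kept without GRKO aldosterone replicate 2 or 6, GRKO vehicle replicate 3 or WT replicate 5 of either group. Without the 2 WT libraries that held collagen transcripts the interaction was -0.37 with an adjusted p of 0.094. The lowest value was 6.65 in the GRKO table and 5.93 in the WT table, so a gene as weak as Slc7a15 had less room to differ in GRKO; the part of this in the result was not tested.

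The larger WT responses of Slc6a20a, Slc6a6 and Slc6a4 did not pass this test of the difference. The interaction was -0.39 ± 0.11 for Slc6a20a (limma adjusted p = 0.0678), -0.28 ± 0.08 for Slc6a6 (limma adjusted p = 0.0692) and -0.36 ± 0.12 for Slc6a4 (limma adjusted p = 0.13). Slc6a20a came to an adjusted p of as little as 0.018 when GRKO vehicle replicate 1, WT aldosterone replicate 1, or WT vehicle replicate 1 or 4 was left out. Slc6a6 passed when GRKO vehicle replicate 1 or WT aldosterone replicate 3 was left out, and Slc6a4 when GRKO aldosterone replicate 1 was. For Slc6a14 the interaction was 0.38 ± 0.15 and for Slc7a11 it was 0.32 ± 0.10 (limma adjusted p = 0.27 and 0.12). Their responses had opposite signs in the lines, with 0.15 in GRKO and -0.24 in WT for Slc6a14, and 0.20 in GRKO and -0.11 in WT for Slc7a11.

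**Figure D2:**
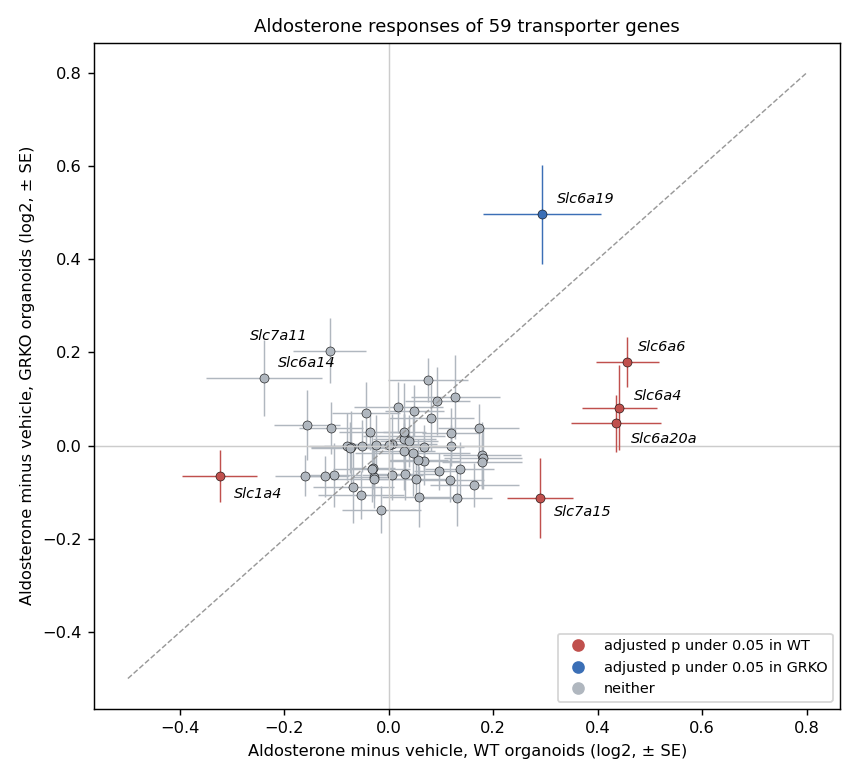
Aldosterone minus vehicle in GRKO organoids (vertical axis) against the same in WT organoids (horizontal axis), log2 ± SE, for 59 transporter genes; red points passed the test in WT, the blue point in GRKO, and the dashed line marks equal responses. Slc6a6, Slc6a4, Slc6a20a and Slc7a15 lie far to the right of the dashed line and Slc6a19 above it.

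Of 21 amino acid response genes 3 rose in WT organoids and none fell, beside 4.23% of all genes raised and 6.59% called, namely Ddit4, an inhibitor of mTORC1 that corticosteroids are known to raise, by 1.99 ± 0.08, the lipoprotein receptor Vldlr by 0.93 ± 0.11 and the stress factor Atf3 by 0.73 ± 0.12. Of 32 genes that sense amino acids upstream of mTORC1, 2 rose and none fell in WT, the leucine sensor relative Sesn1 by 1.47 ± 0.08 and the folliculin partner Fnip2 by 1.38 ± 0.06, a share near that of all genes. In GRKO organoids 1 gene of each list rose, beside 1.12% of all genes, Ddit4 by 0.95 ± 0.05 and Fnip2 by 0.55 ± 0.05. The interactions, GRKO minus WT, were -1.04 ± 0.11 for Ddit4, -0.67 ± 0.14 for Vldlr, -1.34 ± 0.12 for Sesn1 and -0.84 ± 0.08 for Fnip2, and the largest of their limma adjusted p was 0.0060. The defining targets of amino acid shortage, such as Asns, Chac1 and Trib3, were not among the genes called in organoids. Of 20 cytosolic aminoacyl-tRNA synthetases Yars rose in WT by 0.24 ± 0.07 and no other changed, and none of 14 other amino acid and peptide transport genes passed in WT or of 12 in GRKO. In the colonocyte list of 6 genes, Ceacam1 rose by 0.28 ± 0.08 and Aqp8, a water channel, fell by 0.44 in WT, and the part of such shifts in the transporter results was not tested. No goblet, stem, enteroendocrine, tuft, immune, fibroblast or epithelial marker passed in either line.

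In MR cells no transporter gene passed the test with either hormone when replicate numbers were left out of the fit. With aldosterone 0 of 25 passed in cells labelled GRKO (0.993% of all genes called, 2 transporter genes at an unadjusted p under 0.05) and 0 of 26 in parental cells (0.697% of all genes, 1 unadjusted). With corticosterone 0 of 25 passed in cells labelled GRKO (0.248% of all genes, 1 unadjusted) and 0 of 26 in parental cells (3.11% of all genes, 3 unadjusted). In parental cells without added MR 0 of 28 passed with aldosterone (0.00767% of all genes, 5 unadjusted). Over all genes, 1429 of 12486 and 664 of 12479 had an unadjusted limma p under 0.05 with aldosterone in GRKO-labelled and parental MR cells. With corticosterone these counts were 1148 of 12517 and 1360 of 12457, and with aldosterone in cells without added MR 597 of 13038. The authors' deposited adjusted p also called none, where it called 0.785% and 0.700% of all genes with aldosterone in MR cells labelled GRKO and in parental MR cells, 0.432% and 2.56% with corticosterone, and 0.0986% in cells without added MR. With the replicate number as a block, 5 transporter genes passed with corticosterone (1257 genes in all) and 1 with aldosterone (365 in all) in parental MR cells. Only 2 pairs share a number there.

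Within these lines the largest differences were small. In MR cells of either label, the corticosterone and aldosterone tables share their vehicle samples, so these comparisons are not independent. In MR cells labelled GRKO, Slc1a5 differed by -0.08 ± 0.03 with corticosterone (limma adjusted p = 0.45) and by -0.08 ± 0.03 with aldosterone (limma adjusted p = 0.20). Without vehicle replicate 2 the aldosterone difference passed with an adjusted p of 0.047. In the same cells Slc7a5 differed by -0.07 ± 0.04 with corticosterone and -0.06 ± 0.04 with aldosterone, and Slc3a2 by -0.03 ± 0.03 and -0.06 ± 0.03. In parental MR cells with corticosterone, Slc6a9, a glycine carrier, gave 11.77 and 11.87, against 12.01, 11.99 and 11.90 with vehicle. The groups did not overlap, and the difference was -0.15 ± 0.05 (limma adjusted p = 0.20). Slc38a2, a sodium-coupled neutral carrier known to rise when amino acids run short, differed by -0.11 ± 0.04 (limma adjusted p = 0.26) and Slc6a8, the creatine carrier, by 0.07 ± 0.03.

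With aldosterone in parental MR cells the differences were 0.06 ± 0.04 for Slc38a10, -0.05 ± 0.03 for Slc38a2 and 0.05 ± 0.03 for Slc6a8. In parental cells without added MR they were 0.09 ± 0.04 for Slc6a8, 0.09 ± 0.03 for Slc6a6 and 0.07 ± 0.03 for Slc7a6, which exchanges cationic and neutral amino acids. Slc6a6, called in WT organoids, differed by -0.02 ± 0.03 in aldosterone MR cells labelled GRKO and by 0.0041 ± 0.03 in parental MR cells.

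Between lines, 1 of 26 transporter genes passed the interaction for corticosterone in MR cells labelled GRKO against parental MR cells, beside 2.81% of all genes (1.97% lowered). It was Slc38a4, a carrier of neutral and cationic amino acids, with responses of -0.005 and 0.03 and an interaction of -0.037 ± 0.009 (limma adjusted p = 0.0372). The deposited values were 4.27, 4.27 and 4.27 with corticosterone and 4.28, 4.28 and 4.27 with vehicle under the GRKO label, and 4.23 and 4.23 with corticosterone and 4.20, 4.21 and 4.19 with vehicle in parental cells. These levels lie less than 1 log2 unit above the filter on weak genes (3.32), and the call was lost in 10 of 11 fits that left out 1 library, with an adjusted p of up to 0.11, the exception being parental vehicle replicate 2. The glycine carrier Slc6a9 and Slc38a2 had corticosterone interactions of 0.12 ± 0.07 and 0.12 ± 0.04 (limma adjusted p = 0.56 and 0.18). The aldosterone interactions called 0 of 26 transporter genes between the MR lines (0.259% of all genes, 2 unadjusted) and 0 of 28 between parental cells with and without added MR (0.476% of all genes, 0 unadjusted). Over all genes, 1128 of 12753 and 793 of 13028 had an unadjusted limma p under 0.05 in these interactions.

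In parental MR580C cells 2 transporter genes fell with corticosterone and 1 rose, of 52 tested, against 6.92% of all 18787 genes called (3.47% lowered and 3.45% raised). Slc6a6 gave 14.19, 14.13 and 14.13 with corticosterone, against 14.35, 14.35 and 14.37 with vehicle. It fell by 0.21 (SE 0.04, limma adjusted p = 0.000936), the opposite sign to that in aldosterone-treated WT organoids, and no libraries overlapped. Slc6a9 (chr4:117835258-117869305, plus strand) gave 12.39, 12.35 and 12.30 with corticosterone, against 12.61, 12.51 and 12.54 with vehicle. It also fell by 0.21 with no overlap (SE 0.05, limma adjusted p = 0.00591), and the call was lost without corticosterone replicate 2 or 3, with an adjusted p of up to 0.064. The gene that rose was Slc38a4 (chr15:96994823-97020359, minus strand), with 9.54, 9.62 and 9.52 with corticosterone, against 9.42, 9.41 and 9.46 with vehicle.

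The Slc38a4 libraries did not overlap, with a difference of 0.13 ± 0.03 (limma adjusted p = 0.0182), close to the lowest value of that table (9.16). Its call was lost, with an adjusted p of up to 0.16, without corticosterone replicate 2 or vehicle replicate 1 or 2. The authors' deposited table, which called 8.58% of all genes, called these 3 genes and 3 more, Slc1a5 at -0.13, Slc38a2 at -0.11 and Slc1a4 at 0.13 (log2 fold changes), for which limma gave -0.11 ± 0.04, -0.10 ± 0.04 and 0.10 ± 0.04 without passing.

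Aldosterone in the same cells changed 1 of 52 transporter genes, against 1.15% of all genes (0.719% raised). Slc7a2, an arginine carrier (chr8:40862367-40922070, plus strand), gave 9.24, 9.26 and 9.40 with aldosterone, against 9.16, 9.16 and 9.16 with vehicle, which is the lowest value of the table. The difference was 0.14 ± 0.03 (limma adjusted p = 0.0432), but the authors' deposited adjusted p was 1 (1.18% of all genes were called there), and the call was kept in only 1 of 9 fits that left out a library (without aldosterone replicate 1), with an adjusted p of up to 0.23. Slc6a6 differed by -0.11 ± 0.04 with all aldosterone libraries below all vehicle libraries (limma adjusted p = 0.26), Slc3a2 by 0.12 ± 0.03 and Slc1a4 by 0.11 ± 0.04.

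Set directly against aldosterone, corticosterone gave lower Slc6a9 and Slc38a2, 2 of 52 transporter genes against 3.35% of all genes (1.37% lowered). Slc6a9 gave 12.39, 12.35 and 12.30 with corticosterone, against 12.46, 12.68 and 12.65 with aldosterone, with no overlap and a difference of -0.25 ± 0.05 (limma adjusted p = 0.00192). Slc38a2 (chr15:96687392-96699728, minus strand) gave 13.64, 13.57 and 13.57 with corticosterone, against 13.71, 13.79 and 13.68 with aldosterone. No libraries overlapped, and the difference was -0.13 ± 0.04 (limma adjusted p = 0.0375). This call was lost, with an adjusted p of up to 0.21, without aldosterone replicate 1 or 2, corticosterone replicate 2 or 3, or vehicle replicate 1 or 3. Slc6a6 was not separated between the hormones, at -0.10 ± 0.04 (limma adjusted p = 0.20).

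**Figure D3:**
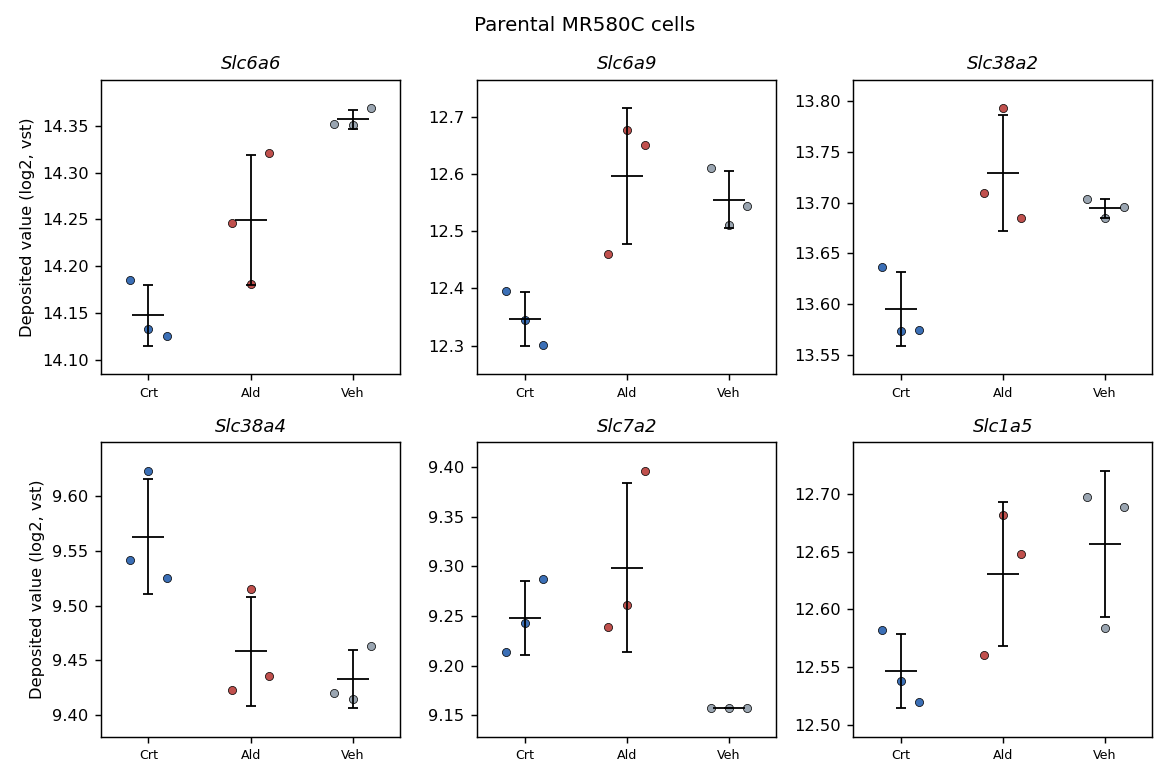
Deposited log2 values (variance-stabilized, vertical axis, a separate range per gene) in parental MR580C cells with corticosterone (blue), aldosterone (red) and vehicle (grey), 1 point per library, 3 per group, with mean ± SD. Slc6a9 and Slc38a2 sit lowest with corticosterone, Slc38a4 highest with corticosterone, and Slc7a2 at the lowest value of the table in all 3 vehicle libraries.

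Members of the amino acid response list passed in both directions in parental MR580C cells. With corticosterone 3 of 19 rose (Cebpb by 0.75 ± 0.04, Ddit4 by 0.56 ± 0.05 and Sesn2 by 0.15 ± 0.04) and Ddit3, a stress factor downstream of Atf4, fell by 0.16, beside 3.45% of all genes raised and 3.47% lowered. With aldosterone Ddit4 rose by 0.51 ± 0.05, Atf5 by 0.21 ± 0.04 and Cebpb by 0.19 ± 0.04, and none of the 19 fell, beside 1.15% of all genes called. Among 32 sensing genes with corticosterone, Fnip2 rose by 0.40 ± 0.03 and Sesn1 by 0.21 ± 0.03 besides Sesn2, while Flcn fell by 0.18 and Tsc2 by 0.15. No aminoacyl-tRNA synthetase of 20 passed with either hormone against vehicle. For corticosterone minus aldosterone, Cebpb passed at 0.55 ± 0.04, Fnip2 at 0.31 ± 0.03, the synthetase Tars at 0.13 ± 0.03 and Ddit3 at -0.21 ± 0.04. Of 19 response genes 1 was thus higher and 1 lower. Of 32 sensing genes 1 was higher, and of 20 synthetases 1, beside 3.35% of all genes called. In parental MR cells with corticosterone, Cebpb rose by 0.52 ± 0.07 and Fnip2 by 0.43 ± 0.04, and Ddit3 and Nupr1 fell by 0.24 and 0.21, beside 3.11% of all genes called. Each of these 4 differed between the lines, with corticosterone interactions (MR cells labelled GRKO minus parental MR cells) of -0.54 ± 0.07 for Cebpb, -0.38 ± 0.05 for Fnip2, 0.22 ± 0.05 for Ddit3 and 0.27 ± 0.05 for Nupr1. No gene of these lists passed with aldosterone in MR cells of either line or in cells without added MR, nor with corticosterone in MR cells labelled GRKO. Among the markers, Krt14 fell by 0.26 with aldosterone and Lrig1, of the stem cell list, by 0.14 with corticosterone in parental MR580C cells.

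In MR580C cells labelled GRKO, 6 transporter genes were listed as lower with corticosterone, among them the glutamine exchanger Slc1a5 and both chains of the leucine carrier. The corticosterone table of these cells holds 404 genes, where the aldosterone table of the same line holds 25124. Of the 404 genes 99.5% are past the authors' adjusted p of 0.05. The short table was thus chosen on the comparison it reports and is described here with no test. Of its genes 56.4% are lower with corticosterone, and of its 6 transporter genes all are. They are Slc7a11, Slc1a5, Slc6a9, Slc7a5, Slc3a2 and Slc7a1, and in the authors' deposited table their log2 fold changes were -0.22, -0.21, -0.19, -0.18, -0.18 and -0.10. Slc7a5 and Slc7a11 are the light chains, and Slc3a2 the heavy chain, of the leucine and cystine carriers.

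Slc1a5 (chr7:16781346-16798274, plus strand) gave 11.33, 11.31 and 11.28 with corticosterone, against 11.47, 11.45 and 11.39 with vehicle. Slc7a5 (chr8:121881146-121907686, minus strand) gave 13.12, 13.12 and 13.07 with corticosterone, against 13.24, 13.26 and 13.22 with vehicle. Slc3a2 (chr19:8706882-8713897, minus strand) gave 11.97, 11.95 and 11.94 with corticosterone, against 12.08, 12.08 and 12.06 with vehicle. In all 3 genes every corticosterone library lay below every vehicle library. Slc7a11 (chr3:50364936-50443613, minus strand), the gene with 2 matches to the amino acid response core, gave 9.65, 9.64 and 9.57 with corticosterone, against 9.68, 9.73 and 9.71 with vehicle. Slc7a1 gave 12.89, 12.90 and 12.87 with corticosterone, against 12.98, 12.93 and 12.96 with vehicle, and Slc6a9 gave 11.19, 11.18 and 11.08 with corticosterone, against 11.29, 11.28 and 11.23 with vehicle. Here too no libraries overlapped. All 6 genes were listed by the comparison shown, so this separation adds no evidence.

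The same short table lists 11 of the 21 amino acid response genes, all 11 lower with corticosterone, in a table chosen on this comparison where 56.4% of all genes are lower. It holds 404 genes, against 25124 in the aldosterone table of this line, and the share of each list that it holds was not tested. In the authors' deposited table the log2 fold changes were -0.41 for Chac1, which degrades glutathione, -0.37 for the Atf4 target Trib3, -0.28 for Ddit3, -0.15 for asparagine synthetase Asns and -0.10 for Atf4 itself. The serine and one-carbon enzymes Mthfd2, Shmt2, Phgdh and Psat1 were at -0.18, -0.13, -0.11 and -0.10, and Sesn2 and the proline enzyme Aldh18a1 were at -0.22 and -0.15. It also lists 3 of 20 aminoacyl-tRNA synthetases, Wars, Vars and Lars, all lower, and of the sensing genes Fnip1 at 0.21 and Fnip2 at 0.26. Krt14 of the epithelial list was at -0.37.

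Aldosterone in the same line could be tested over a full table, where 0 of 27 transporter genes passed, against 0.298% of all 12418 genes (at an unadjusted limma p under 0.05, 6 transporter genes and 2032 of all genes). This table shares its vehicle samples with the corticosterone table, so the comparisons are not independent. Aldosterone replicates 2 and 3 were identical in every varying gene and were counted as 1 library, which left 2. Slc1a5 gave 11.32 and 11.22 in these, against 11.49, 11.47 and 11.41 with vehicle, and differed by -0.19 ± 0.04 (limma adjusted p = 0.0887). Slc6a9 gave 11.15 and 10.95, against 11.29, 11.28 and 11.23 with vehicle, and differed by -0.21 ± 0.05 (limma adjusted p = 0.11). Slc7a5 gave 13.14 and 13.11, against 13.27, 13.29 and 13.25 with vehicle, and differed by -0.14 ± 0.04 (limma adjusted p = 0.12). All 3 had no overlap, which 2 libraries against 3 can show by chance. The authors' deposited table, which kept both identical libraries, called them at -0.33, -0.41 and -0.23, beside 3.14% of all genes.

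Slc7a11, Slc7a1 and Slc3a2 differed by -0.11 ± 0.03, -0.09 ± 0.04 and -0.06 ± 0.03 with aldosterone. The calls in this comparison turned on the aldosterone libraries. Without replicate 1, 7 transporter genes passed (Slc1a5, Slc6a9, Slc7a1, Slc7a5, Slc7a6, Slc7a11 and Slc38a10) beside 2377 genes in all, and without the merged library 2 passed (Slc1a5 and Slc7a5) beside 525. Each of these fits rests on 1 aldosterone library, assumed to vary as the vehicle libraries do. Of 17 amino acid response genes Trib3 fell by 0.23 (SE 0.03, limma adjusted p = 0.023), no other passed, and 4 of the 17 were above 0 with a median of -0.07, against 0.0002 over all genes.

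**Figure D4:**
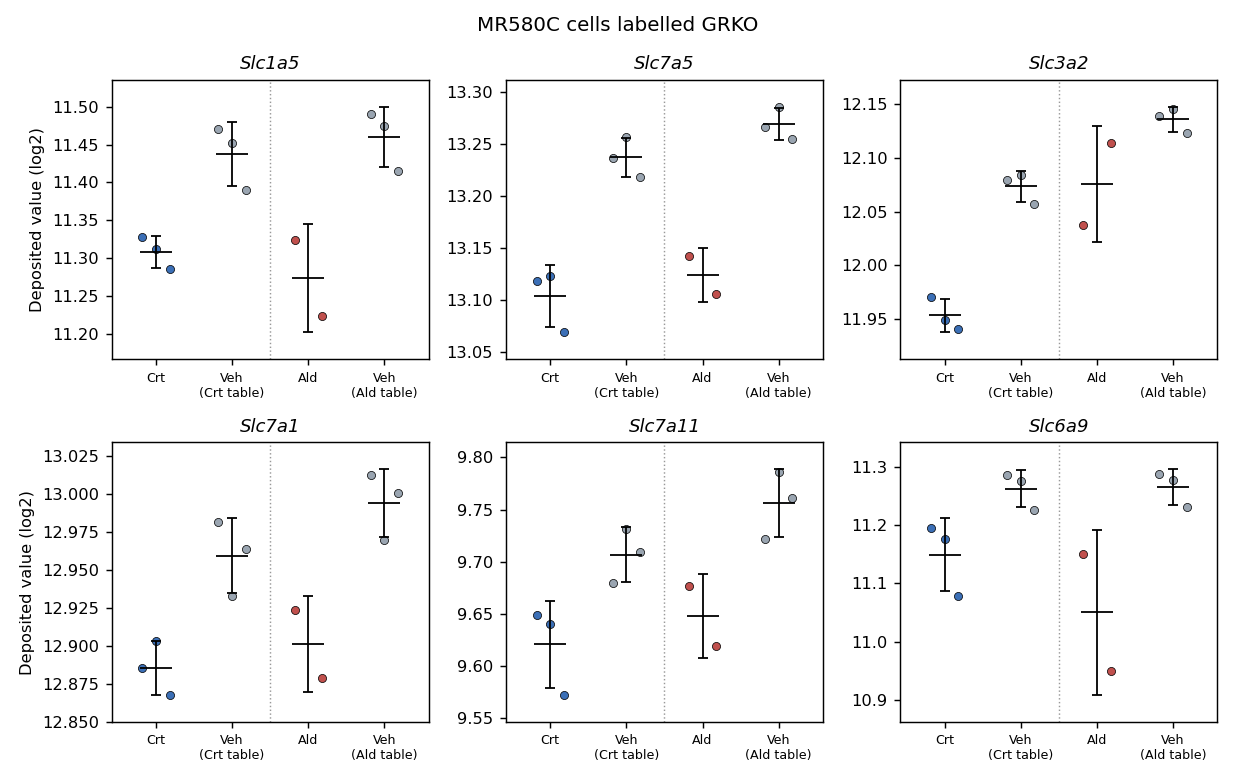
Deposited log2 values (vertical axis, a separate range per gene) of 6 transporter genes in MR580C cells labelled GRKO, with corticosterone (blue) left of its vehicle and aldosterone (red, 2 libraries after merging identical ones) left of its vehicle (grey), 1 point per library, with mean ± SD. In each panel the hormone libraries lie below the vehicle libraries of their own table, and the vehicle samples are the same in both tables. The 6 genes were selected on the corticosterone comparison.

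The parental MR580C line gave other values for these 6 genes. With corticosterone the differences there were -0.11 ± 0.04 for Slc1a5, -0.02 ± 0.04 for Slc7a5, 0.08 ± 0.03 for Slc3a2, -0.0093 ± 0.03 for Slc7a11 and -0.06 ± 0.03 for Slc7a1, and of the 6 only Slc6a9, at -0.21 ± 0.05, passed in limma, while the authors' deposited adjusted p called Slc1a5 as well. The tables are on different log scales and 1 is a selected list, so the difference between the MR580C lines was not tested. Of the 23 transporter genes tested in every comparison, 19 were called in none by limma without the replicate number as a block. The exceptions were Slc1a4, Slc6a6, Slc6a9 and Slc38a2. The matching count over all genes was not made, so these counts cannot be set against a background share. The authors' deposited adjusted p called some of the 19, such as Slc1a5 and Slc7a5 in MR580C cells labelled GRKO.

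**Figure D5:**
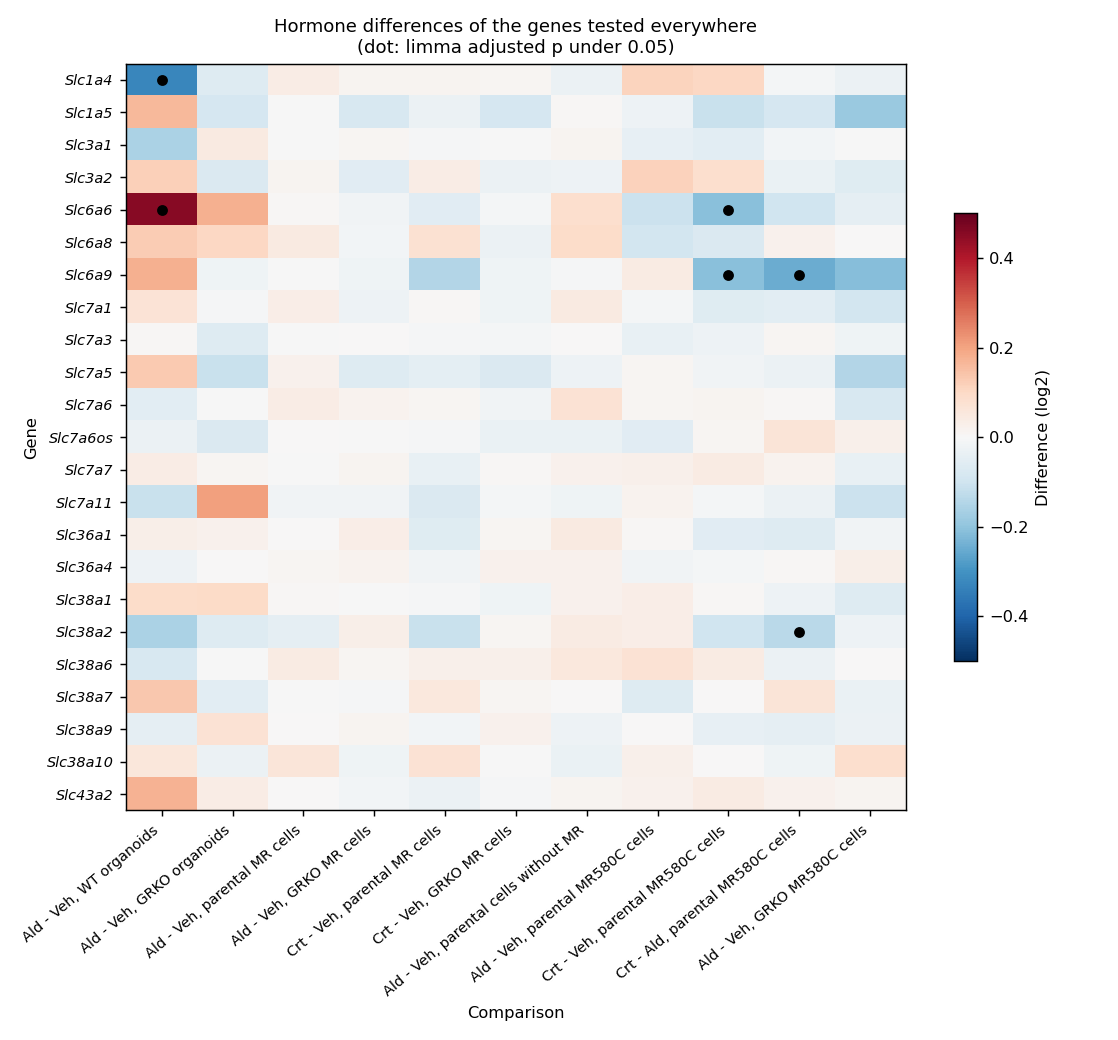
Differences (colour, log2, clipped at 0.5 in either direction) of the 23 transporter genes tested in every comparison (rows) over 11 hormone comparisons (columns), with a dot where limma's adjusted p was under 0.05. Dots stand at Slc6a6 and Slc1a4 in WT organoids and at Slc6a6, Slc6a9 and Slc38a2 in parental MR580C cells, and colours are compressed for weak genes and differ in scale between tables.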

How the data were processed

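RNA was sequenced from colon organoids and cell lines (stranded total RNA libraries on NovaSeq, per the labels' protocols). The authors counted reads in exons of mm10 with HOMER, merged transcripts by gene and deposited 1 table per comparison, per the file headers. Deposited values are log2 numbers, named as a variance-stabilizing transformation in the headers of the organoid and parental MR580C tables and taken from the values as a regularized log in the others, and each table was normalised on its own. Beside them stand the authors' adjusted p-values, raw p-values and log2 fold changes. The submitters' processing notes name HOMER 4.10.4, STAR 2.7.0f and Bowtie2 2.3.4.1. The annotation release, the strand setting of the counting and the test behind the authors' p-values are not given in the sources used. Where an opposite-strand symbol overlaps its partner, they cannot be told apart without the strand setting. Slc36a1os (chr11:55191719-55197682) does not overlap Slc36a1 (chr11:55204340-55236330).

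Since the tables hold log values and not counts, limma 3.58.1 (R 4.3.3) was fitted to each table with 1 mean per group and a variance trend, with Benjamini-Hochberg adjustment over all genes tested and a threshold of 0.05. The parental MR580C fit held all 3 groups, and interactions were fitted over a pair of tables of the same transformation. Genes that did not vary were left out. The procedure was tested on simulated data. Parental MR cells with corticosterone replicate 2 had no column. Library totals, given in the headers, limit precision most for weak genes, whose log2 values are pulled to the lowest value in the variance-stabilized tables.

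Genes named are transporter genes called in a comparison, the 3 with the largest differences in each, 11 well known members (Slc1a5, Slc3a2, Slc6a6, Slc6a14, Slc7a1, Slc7a5, Slc7a11, Slc36a1, Slc38a1, Slc38a2 and Slc43a1), and called genes of the other lists. The members and lists were chosen with earlier results of these data known. Values of single libraries of Col1a1 and Col1a2 were chosen after they were seen. Alternatives were another filter or none, no trend, centring on medians, a replicate block, leaving out libraries, keeping identical libraries separate and the authors' adjusted p. Same-numbered samples did not deviate together in every pair of any comparison with 3 or more pairs, so the numbers were not taken as pairing. The chromatin samples were not analysed here.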

Additional observations from a re-analysis of the deposited data

Results flagged for a closer look

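In organoids, 5 of 64 groups of values of named transporter genes held a library set apart from the rest of its group by its gap to the nearest one, where chance gives about 5% of groups. Slc6a6 was at 12.84 in GRKO vehicle replicate 1, with the nearest library at 13.01, and at 12.90 in WT vehicle replicate 3, with the nearest at 13.13. Slc6a20a was at 7.58 in GRKO vehicle replicate 1, with the nearest at 7.83. Slc36a1 was at 11.41 in GRKO aldosterone replicate 2, with the nearest at 11.01. Slc7a11 was at 10.44 in WT aldosterone replicate 3, with the nearest at 10.75.

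In 2 cases the hormone response differed between lines by the interaction test in limma. Slc7a15 gave -0.40 for the aldosterone response in GRKO minus WT organoids (adjusted p = 0.0491), and Slc38a4 gave -0.037 for the corticosterone response in MR cells labelled GRKO minus parental MR cells (adjusted p = 0.0372). Both calls were lost without any 1 of most libraries.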

How the results depend on the processing

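The 5 calls in WT organoids were made under all alternatives run, the replicate block included, with 5 to 6 transporter genes called when 1 library was left out. The filter settings could not change these calls, since no value there was below 5.93. With 1 library left out the counts were 0 to 2 in GRKO organoids, 0 to 2 for the organoid interaction, 0 to 1 for aldosterone in MR cells labelled GRKO, 0 to 1 for the corticosterone interaction of MR cells, 1 to 4 for corticosterone in parental MR580C cells, 0 to 1 for aldosterone there, 1 to 2 between the hormones there, 0 to 7 for aldosterone in MR580C cells labelled GRKO, and 0 to 0 elsewhere. With the authors' adjusted p, 2 transporter genes were called in GRKO organoids (468 genes in all) and 3 with aldosterone in MR580C cells labelled GRKO (553 in all). In parental MR580C cells it called 6 with corticosterone (1611 in all) and 0 with aldosterone (222 in all). Centring on medians, or no variance trend, gave 0 for aldosterone in parental MR580C cells, 0 for the organoid interaction and 0 for the corticosterone interaction of MR cells, and so did either other filter for the last (0 without a filter, 0 at log2 5). With the identical libraries kept separate, 4 transporter genes passed with aldosterone in MR580C cells labelled GRKO. Over all genes 683 passed there, against 37 in the main fit. Without the WT aldosterone libraries that held collagen transcripts, an alternative chosen after seeing the data, the organoid interaction called 0. The causes were not tested.

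With the replicate number as a block, 0 transporter genes were called in GRKO organoids, 0 for the organoid interaction, 5 for corticosterone in parental MR cells (Slc6a9, Slc38a2, Slc38a4, Slc38a10 and Slc7a11), 1 for aldosterone there (Slc38a10), 1 for the aldosterone interaction of MR cells (Slc38a4) and 2 for the corticosterone one (Slc38a2 and Slc38a4). Over all genes the block gave 19 calls in place of 263 in GRKO organoids and 1257 in place of 388 for corticosterone in parental MR cells. Deviations of same-numbered samples correlated between -0.17 and 0.51 in WT organoids, between -0.16 and -0.08 in GRKO organoids and, over only 2 pairs each, between 0.67 and 0.75 in parental MR cells, and in no comparison with 3 or more pairs did every sample correlate best with its own number. For aldosterone in MR580C cells labelled GRKO no block was fitted, since the groups share 1 number once the identical libraries are merged. No direction was reversed under any alternative.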
